A study of Mus musculus with 4 samples.

Results

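The T and NK cell genes described here are 36 genes that T lymphocytes, natural killer (NK) cells or both are known for, measured on microarrays of transplanted blood stem and progenitor cells. They were chosen by name: every non-control probe whose gene name on the array design was one of the 36 symbols was taken, which gave 46 of 55669 probes and 36 of 34839 genes. By role they comprise 10 genes of the T cell receptor and its signalling, 8 of the T cell surface and costimulation, 5 of cytokine and chemokine signalling, 4 NK receptors, 4 cytotoxic granule genes and 5 transcription factors. In all, 35 of the 36 were well above background (a flag of the scanner software) on at least 1 array, and Klrk1 was not.

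The study asked how p38 alpha (encoded by Mapk14) and purine metabolism bear on the start of cycling in these cells. Male C57BL/6J donors, 10 weeks old and of the Ly5.2 type, carried a conditional knockout of p38 (cKO) or were wild type (WT). Marrow cells of the lineage-negative, Sca-1+, Kit+ gate were sorted as long-term haematopoietic stem cells (LT-HSC, CD34- Flt3-) or multipotent progenitors (MPP, CD34+ Flt3+). All 4 groups, cKO LT-HSC, WT LT-HSC, cKO MPP and WT MPP, were stained with the dye CFSE and injected into Ly5.1 mice irradiated with 9.5 Gy, and CFSE-positive marrow cells were sorted 16 h later for RNA. There was 1 array per group, so no difference between 2 arrays has a replicate check or a p-value. The labels name neither the Cre driver of the knockout, nor how many mice gave one RNA, nor a gate other than CFSE for the second sort. Levels below are processed signals scaled to a common 75th percentile (scaled signal, in arbitrary units), and a value after ± is the error that the scanner software attaches to a log2 difference, which covers neither cells, sorts nor RNA amplification. A gene well above background on 1 of 2 arrays has a bound, written "at least".

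As background, T cells recognise antigen through a receptor that signals through the CD3 chains and the zeta chain Cd247, the kinases Lck and Zap70 and the adaptor Lat. NK cells are lymphocytes of innate immunity that kill with perforin and granzymes and read target cells through lectin-like receptors such as Klrd1 and through Ncr1. Both arise from marrow progenitors, depend on cytokines such as interleukin-7 and interleukin-15, and are normally removed from a stem cell gate by antibodies to lineage markers; some members, among them Thy1 and Cd27, are also known on blood progenitors.

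Array quality and identity were as follows. Well above background were 70.5% of spots on the cKO LT-HSC array and 68.3% on the WT LT-HSC array, with 65.0% on the cKO MPP array and 62.5% on the WT MPP array, all on 1 slide and from 1 scan. The genes of the sort ran with the labels: Cd34 had a scaled signal of 3417 on the cKO LT-HSC array and 1048 on the WT LT-HSC array, against 6934 on the cKO MPP array and 8304 on the WT MPP array, and Flt3 likewise had 180 and 158 on the LT-HSC arrays (cKO, then WT) against 400.1 and 553 on the MPP arrays. Both belong to a list of 15 stem and progenitor genes. By 2-fold, 1 of the 15 was higher and 3 lower in LT-HSC than in MPP in cKO (7.92% and 6.69% of all genes). In WT 1 was higher and 5 lower (10.2% and 18.1%). The median LT-HSC minus MPP difference of the list was -0.14 (log2) in cKO and -0.61 in WT. Between the LT-HSC arrays, however, Cd34 was 1.71 (log2) higher in cKO than in WT, and its part in the genotype differences below was not tested. Mapk14 had 866 on the cKO LT-HSC array against 1297 on the WT LT-HSC array, and 1121 on the cKO MPP array against 1021 on the WT MPP array, at its brighter probe. The other probe gave cKO minus WT differences of 0.13 and -0.03 (log2), and as the deleted exons are not given in the labels, neither probe checks the genotype.

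Most T and NK cell genes were higher in LT-HSC than in MPP, in both genotypes. On the cKO arrays 21 of the 34 genes measured on at least 1 array were higher in LT-HSC by 2-fold or more (measured or as a bound) and 1 was lower, where 7.92% of all genes were higher and 6.69% lower. On the WT arrays 23 of 34 were higher and 1 was lower, where 10.2% of all genes were higher and 18.1% lower. With dim signals taken at their own value, both LT-HSC arrays lay above both MPP arrays for 29 of the 33 members well above background on at least 2 arrays (21.1% of all genes). They lay below both for Cd27 and Nkg7 (33.6% of all genes). The 29 include 8 detected on the LT-HSC arrays alone, whose order could run 1 way only. Among these, Txk is unresolved in WT, as its WT LT-HSC signal (13.2) was under the lowest flagged signal of the WT MPP array (16.6). The members higher by 2-fold in both genotypes numbered 18 of 35 (3.61% of all genes), and the 1 lower in both was Cd27 (3.04%).

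Part of this count follows from detection. On all 4 arrays 20 members were well above background, 8 were so on both LT-HSC arrays alone (3.7% of detected genes) and 0 on both MPP arrays alone (0.48%); those 8 could differ in 1 direction only. Among the 20 detected on all 4 arrays, 9 were higher by 2-fold in cKO LT-HSC than in cKO MPP and 1 lower (6.21% and 6.4% of all such genes), and 11 were higher in WT LT-HSC than in WT MPP and 1 lower (9.0% and 18.5%). Counting measured differences alone, 12 of 24 were higher and 1 lower in cKO LT-HSC than in cKO MPP (6.67% and 6.43% of all genes), and 11 of 21 were higher and 1 lower in WT (9.14% and 18.1%). At a limit of 1.5-fold the counts were 24 higher and 1 lower in cKO (15.4% and 19.2%) and 28 higher and 2 lower in WT (17.3% and 31.6%). Over members measured on both arrays, the median LT-HSC minus MPP difference was 0.95 (log2, n = 24) in cKO, against -0.09 over all genes, and 1.22 (n = 21) in WT, against -0.20 over all genes. Each array holds RNA of many cells, so fewer cells of a type and less RNA per cell cannot be told apart.

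**Figure D1:**
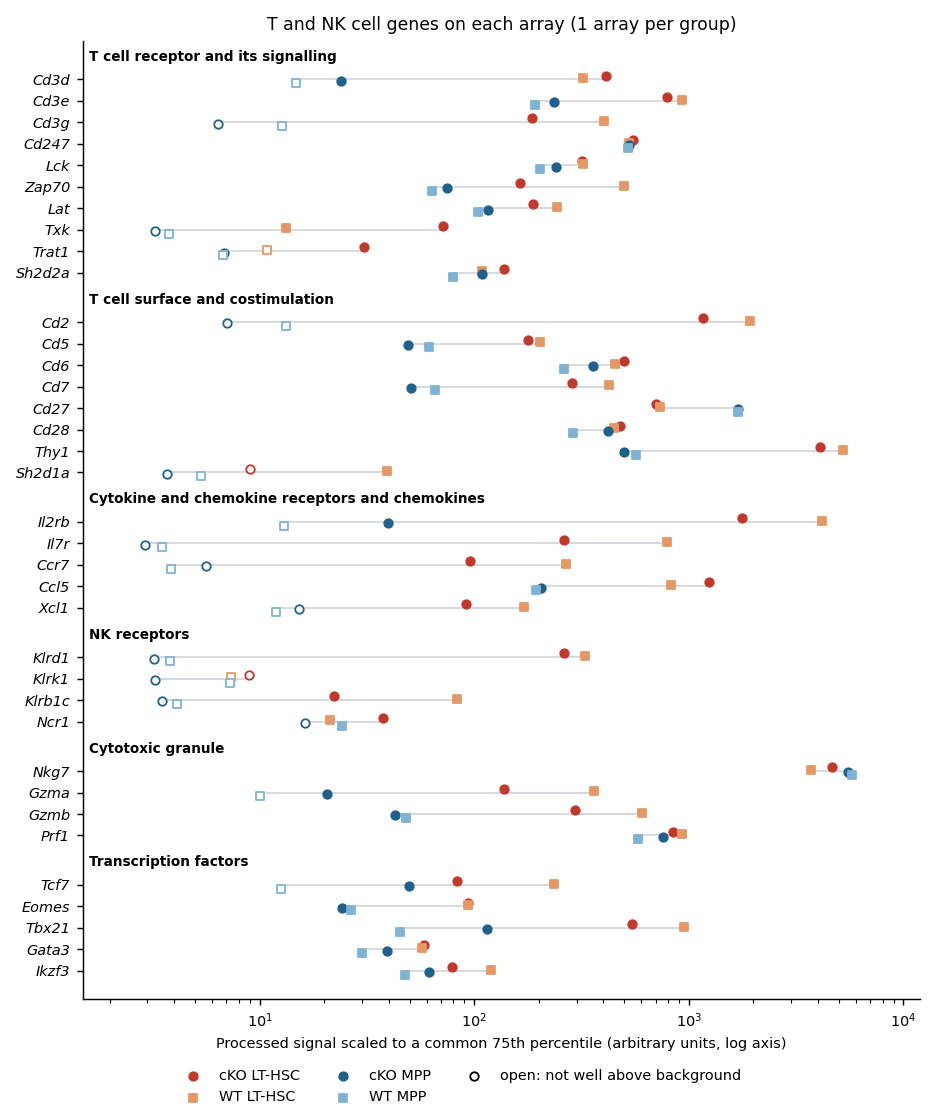
Scaled processed signal (log axis, arbitrary units) of the 36 T and NK cell genes on the cKO LT-HSC, WT LT-HSC, cKO MPP and WT MPP arrays, 1 point per array, with open symbols where the gene was not well above background. The LT-HSC points lie to the right of the MPP points for 29 of the 33 genes detected on at least 2 arrays, with Cd27 and Nkg7 the other way round. Open symbols are placed at their own dim value, and 8 of the 29 were detected on the LT-HSC arrays alone.

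Across both genotypes the population effect was also fitted with limma on all 4 arrays, with genotype as the second term and 1 residual degree of freedom. With Benjamini-Hochberg adjustment over 25855 genes, 0 of 33 members passed 0.05, as did 0% of all genes. At an unadjusted p under 0.05 stood 22 members, 21 higher and 1 lower in LT-HSC, against 6.71% of all genes higher and 9.16% lower. The 21 include the 8 members detected on the LT-HSC arrays alone, whose dim MPP signals entered at their own value. Those 8 could run in 1 direction only. Restricted to genes detected on all 4 arrays, the fit had 10 of 20 members higher and 1 lower at this unadjusted limit. Of all such genes 6.29% were higher and 12.97% lower. The count at the adjusted threshold depended on the processing. It was 4 with the percentile taken over probes detected on all arrays (102 of 25855 genes) and 4 with normexp background correction (141 of 25855). Where the probes of each gene were averaged it was 5 (154 of 25940 genes). With genes detected on all 4 arrays, 0 of 20 members and 68 of 21534 genes passed. The smallest limma adjusted p among members was 0.0636, shared by Cd3g, Cd2, Il7r and Klrd1, whose effects rest on dim MPP signals taken at their own value. Thy1, measured on all 4 arrays, had an effect of 3.13 ± 0.27 (log2, SE) and a limma adjusted p of 0.0970, with LT-HSC above MPP in both genotypes.

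Against this common direction the genotypes differed within LT-HSC. On the cKO LT-HSC array 2 of 35 members were higher than on the WT LT-HSC array by 2-fold or more and 10 were lower, where 10.7% of all genes were higher and 8.24% lower. The 10 were Cd3g, Zap70, Sh2d1a, Il2rb, Il7r, Ccr7, Klrb1c, Gzma, Gzmb and Tcf7, and the 2 were Txk and Trat1. Of these, Sh2d1a and Trat1 are bounds; measured differences alone gave 1 higher and 9 lower of 33 (8.98% and 7.91% of all genes), and a limit of 1.5-fold gave 4 higher and 14 lower (21.1% and 15.1%). Among the 20 genes detected on all 4 arrays, 0 were higher and 2 lower (9.18% and 7.56%). The median over the 33 members measured on both arrays was -0.33 (log2), against 0.10 over all genes. In MPP 3 of 25 members were higher on the cKO array by 2-fold and 0 lower (2.4% and 2.63% of all genes), with a median of 0.19 (n = 20), against -0.06 over all genes. Of the 3, only Tbx21 was measured on both MPP arrays, which left 1 higher and 0 lower of 20 (1.76% and 1.89%). Among genes detected on all 4 arrays the count was likewise 1 and 0 (1.59% and 1.73%), and at 1.5-fold it was 3 and 0 (7.9% and 9.49%). With normexp background correction 0 members were higher and 6 lower in cKO LT-HSC, where 1028 and 1048 of 27645 genes were. In cKO MPP 0 members were then higher, where 88 of 25339 genes were. The cKO minus WT difference in LT-HSC and the LT-HSC minus MPP difference in WT share the WT LT-HSC array, which enters them with opposite signs.

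**Figure D2:**
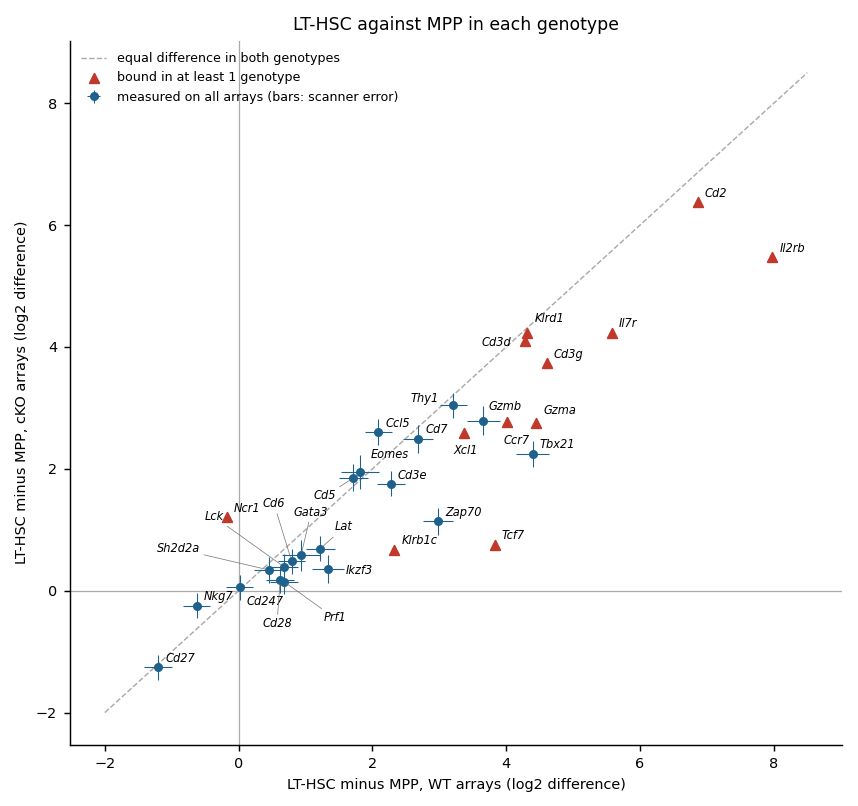
LT-HSC minus MPP difference (log2) of 32 members on the WT arrays (horizontal axis) and on the cKO arrays (vertical axis); circles are the 20 genes measured on all 4 arrays with the scanner software's error as bars, triangles the 12 with a bound in at least 1 genotype, and the dashed line marks equal differences. Cd2 and Il2rb lie farthest from zero, Zap70, Tbx21 and Tcf7 lie below the dashed line, and Cd27 and Nkg7 lie below zero in both genotypes.

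The promoters of 4 members that were higher in LT-HSC in both genotypes, from 4 role groups, and of Cd27, the member lower by 2-fold in both, are shown to set the sequence beside the levels. Each is the 250 bases before the gene's start in RefSeq's annotation of build GRCm38.p6, read 5′ to 3′ on the gene's strand. Capitals mark any of 7 strings on either strand: GATAA (GATA factors), TGTGGT (RUNX), GGAAGT (ETS), CAGGTG (E proteins), GGTGTGA (T-box), CTTTGA (TCF and LEF) and TGGGAA (Ikaros); the ETS and Ikaros strings can overlap in GGAA.
Cd3g promoter, chr9:44980432-44980681, minus strand: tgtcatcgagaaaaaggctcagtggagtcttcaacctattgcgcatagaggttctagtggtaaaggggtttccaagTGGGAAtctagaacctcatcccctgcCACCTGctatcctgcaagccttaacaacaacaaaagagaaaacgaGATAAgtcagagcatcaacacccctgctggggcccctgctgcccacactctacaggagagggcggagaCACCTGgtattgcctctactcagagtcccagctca
Il7r promoter, chr15:9529877-9530126, minus strand: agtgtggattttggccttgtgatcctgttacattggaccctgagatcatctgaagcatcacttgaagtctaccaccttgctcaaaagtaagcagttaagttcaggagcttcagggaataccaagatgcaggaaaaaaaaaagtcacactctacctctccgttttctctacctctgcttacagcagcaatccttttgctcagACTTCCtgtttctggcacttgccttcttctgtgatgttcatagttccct
Gzmb promoter, chr14:56262335-56262584, minus strand: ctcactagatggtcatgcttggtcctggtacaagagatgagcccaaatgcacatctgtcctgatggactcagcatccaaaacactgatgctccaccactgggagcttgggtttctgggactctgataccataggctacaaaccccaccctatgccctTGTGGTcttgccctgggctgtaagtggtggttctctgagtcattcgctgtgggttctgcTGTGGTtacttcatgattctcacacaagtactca
Tbx21 promoter, chr11:97115332-97115581, minus strand: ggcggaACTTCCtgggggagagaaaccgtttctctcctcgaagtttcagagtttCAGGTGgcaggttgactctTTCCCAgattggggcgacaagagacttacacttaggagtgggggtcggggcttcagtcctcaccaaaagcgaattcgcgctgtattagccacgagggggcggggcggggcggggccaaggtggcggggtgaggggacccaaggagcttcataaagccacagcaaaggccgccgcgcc
Cd27 promoter, chr6:125237028-125237277, minus strand: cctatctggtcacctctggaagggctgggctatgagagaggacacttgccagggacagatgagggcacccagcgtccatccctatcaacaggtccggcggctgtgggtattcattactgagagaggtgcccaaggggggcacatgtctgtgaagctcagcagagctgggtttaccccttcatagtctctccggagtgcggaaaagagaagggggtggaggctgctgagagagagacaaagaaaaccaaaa
The Il7r window held the ETS string once, that of Gzmb the RUNX string at 2 places, that of Cd3g the E protein string at 2 places with 1 GATA and 1 Ikaros string, and that of Tbx21 the ETS, E protein and Ikaros strings once each, while in the Cd27 window 0 of the 7 occurred. Promoter windows were held for 24 of the 36 members, with 30 start sites. The ETS string stood in 15 of these 30 windows (50%), against 19.7% of all 32851 windows, and the RUNX string in 13 (43.3%), against 14.0%. The E protein string stood in 10 (33.3% against 17.2%), the Ikaros string in 9 (30.0% against 21.6%) and the T-box string in 3 (10.0% against 3.33%). The GATA string (16.7% against 22.6%) and the TCF and LEF string (13.3% against 13.8%) were not more frequent than among all windows. Start sites of one gene share sequence, and a match says only that the letters are there.

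Of the T cell receptor genes, the 3 CD3 chains were higher in LT-HSC in both genotypes. They lie side by side on chromosome 9 (mm9), with probes at 44777868 to 44777927 for Cd3g, 44794171 to 44794402 for Cd3d and 44806828 to 44806887 for Cd3e. Cd3e, the epsilon chain, had 791 on the cKO LT-HSC array and 928 on the WT LT-HSC array, against 235 on the cKO MPP array and 192 on the WT MPP array. Its LT-HSC minus MPP difference was 1.75 ± 0.21 (log2) in cKO and 2.27 ± 0.21 in WT. Cd3d, the delta chain, had 413 and 323 on the LT-HSC arrays of cKO and WT, 24.1 on the cKO MPP array, and 14.8, not well above background, on the WT MPP array. That placed it 17.1-fold higher in LT-HSC in cKO and at least 19.5-fold higher in WT. Cd3g, the gamma chain, had 186 on the cKO LT-HSC array and 403 on the WT LT-HSC array, and was not well above background on the MPP arrays of cKO (6.37) and WT (12.7). The neighbours thus shared the direction between populations but not between genotypes: in LT-HSC the cKO minus WT difference was -1.12 ± 0.21 for Cd3g, -0.23 ± 0.20 for Cd3e and 0.36 ± 0.20 for Cd3d.

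Cd247, the zeta chain that carries most of the receptor's signalling motifs, gave different pictures at its 2 probes. The brighter probe (mm9 chromosome 1, 167800324 to 167800383) was level, with 547 on the cKO LT-HSC array and 525 on the WT LT-HSC array, against 527 on the cKO MPP array and 519 on the WT MPP array. The other spans a splice junction farther upstream and is shown because it differs from the level probe, together with the junction-spanning probe of Cd2, a member with one of the greatest population differences; both are written 5′ to 3′ as on the array, with mm9 coordinates and nothing in capitals.
Cd247 probe, chr1:167786567-167787585: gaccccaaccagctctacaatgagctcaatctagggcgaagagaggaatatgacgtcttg
Cd2 probe, chr3:101083802-101086981: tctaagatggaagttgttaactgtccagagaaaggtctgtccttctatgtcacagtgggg
At this Cd247 probe the signal was 54.2 on the cKO LT-HSC array and 144 on the WT LT-HSC array, and not well above background on the MPP arrays of cKO (12.6) and WT (15.4). The LT-HSC minus MPP difference was therefore at least 1.96 (log2) in cKO and at least 3.12 in WT, and the cKO minus WT difference in LT-HSC was -1.41. The 2 probes carry accessions of different transcripts, so the level probe speaks only for the transcripts it reads.

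Zap70, the kinase that binds the phosphorylated receptor chains, had 164 on the cKO LT-HSC array and 501 on the WT LT-HSC array, against 74.7 on the cKO MPP array and 63.4 on the WT MPP array. It was 3.05-fold lower in cKO than in WT LT-HSC (-1.61 ± 0.21 log2), and a second probe gave -1.45. Lck, the kinase that acts before it, varied less, with 316 and 322 on the LT-HSC arrays of cKO and WT against 241 and 202 on the MPP arrays. Lat, the membrane adaptor that Zap70 phosphorylates, had 188 on the cKO LT-HSC array and 244 on the WT LT-HSC array, against 116 on the cKO MPP array and 104 on the WT MPP array. Between genotypes neither Lck nor Lat reached 1.5-fold in either population.

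Txk, a Tec-family kinase of T cells, went the other way between genotypes. It had 71.5 on the cKO LT-HSC array and 13.2 on the WT LT-HSC array, a difference of 2.43 ± 0.35 (log2), and was not well above background on the MPP arrays of cKO (3.24) and WT (3.79). Its WT LT-HSC level stood near the lowest signal counted as well above background on that array (11.2), so the size of the difference is uncertain. Trat1, an adaptor of the receptor, ranged from 6.71 to 30.6 and was well above background on the cKO LT-HSC array alone, where it was at least 2.73-fold higher than on the WT LT-HSC array. Sh2d2a, a T cell adaptor that binds Lck, had 138 on the cKO LT-HSC array and 109 on the WT LT-HSC array, against 109 on the cKO MPP array and 79.6 on the WT MPP array. Its second probe turned the sign of the cKO minus WT difference in both populations (-0.16 and -0.05, against 0.34 and 0.45).

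Among the T cell surface genes, Cd2 and Thy1 separated the populations most. Cd2, an adhesion receptor of T and NK cells, had 1158 on the cKO LT-HSC array and 1926 on the WT LT-HSC array, as means of 10 spots, and was not well above background on the MPP arrays of cKO (7.04) and WT (13.2). Averaged over genotypes it was at least 98.2-fold higher in LT-HSC, and a second probe in the gene gave at least 3.79 (log2) in cKO and 5.05 in WT. Thy1, a surface glycoprotein of T cells that some blood progenitors also carry, had 4099.7 on the cKO LT-HSC array and 5232 on the WT LT-HSC array, against 498 on the cKO MPP array and 565 on the WT MPP array. Its LT-HSC minus MPP difference was 3.04 ± 0.20 (log2) in cKO and 3.21 ± 0.20 in WT, while cKO minus WT was -0.35 ± 0.20 in LT-HSC and -0.18 ± 0.20 in MPP.

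Cd7, a costimulatory protein of T and NK cells, had 285 on the cKO LT-HSC array and 424 on the WT LT-HSC array, against 50.7 on the cKO MPP array and 65.9 on the WT MPP array. Cd5, which dampens receptor signalling, had 177 and 203 on the LT-HSC arrays of cKO and WT against 49.0 and 61.6 on the MPP arrays. Its relative Cd6 is encoded next to it on chromosome 19 and had 498 and 454 on the LT-HSC arrays of cKO and WT against 356 and 262 on the MPP arrays. The 3 genes were higher in LT-HSC in both genotypes, Cd7 and Cd5 by over 2-fold. Cd6 was higher by 1.40-fold in cKO and 1.73-fold in WT at its brighter probe. A second Cd6 probe, dimmer but well above background on all 4 arrays, gave 2.05 (log2) in cKO and 1.21 in WT. Its cKO minus WT difference in MPP was -0.60, against 0.44 at the brighter probe. Cd28, the main costimulatory receptor of T cells, had 476 on the cKO LT-HSC array and 446 on the WT LT-HSC array, against 422 on the cKO MPP array and 290.0 on the WT MPP array. Sh2d1a, an adaptor of the SLAM receptors of T and NK cells, ranged from 3.70 to 39.1 and was well above background on the WT LT-HSC array alone, so it was at least 3.27-fold lower on the cKO LT-HSC array.

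Cd27, a costimulatory receptor of the TNF receptor family that lymphocytes and early progenitors carry, was the only member lower in LT-HSC by 2-fold in both genotypes. It had 705 on the cKO LT-HSC array and 734 on the WT LT-HSC array, against 1688 on the cKO MPP array and 1694 on the WT MPP array. The LT-HSC minus MPP difference was -1.26 ± 0.20 (log2) in cKO and -1.21 ± 0.20 in WT, and a second probe close by gave -1.40 and -1.22. Between genotypes its levels differed by less than the scanner error in both populations.

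Of the cytokine and chemokine genes, 5 of 5 were higher in LT-HSC by 2-fold in each genotype (7.92% of all genes in cKO and 10.2% in WT), and 3 of 5 were lower by 2-fold on the cKO LT-HSC array (8.24%). In cKO 3 of the 5 population differences, and in WT 4, are bounds from dim MPP signals, which could run in 1 direction only. Il2rb, the beta chain shared by the interleukin-2 and interleukin-15 receptors, had 1761 on the cKO LT-HSC array and 4177 on the WT LT-HSC array. Its MPP signals were 39.6 in cKO and 13.1, not well above background, in WT. It was 44.5-fold higher in LT-HSC in cKO and at least 252-fold higher in WT. Between genotypes the direction differed by population, with -1.25 ± 0.20 (log2) in LT-HSC and at least 1.26 in MPP.

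Il7r, the interleukin-7 receptor chain that lymphoid progenitors and T cells need, had 263 on the cKO LT-HSC array and 792 on the WT LT-HSC array, and was not well above background on the MPP arrays of cKO (2.93) and WT (3.52). Ccr7, the chemokine receptor that leads T cells to lymph nodes, had 95.1 on the cKO LT-HSC array and 268 on the WT LT-HSC array, and was likewise dim on the MPP arrays of cKO (5.62) and WT (3.87). Averaged over genotypes, Il7r was at least 30.0-fold and Ccr7 at least 10.5-fold higher in LT-HSC. On the cKO LT-HSC array Il7r was 3.01-fold and Ccr7 2.82-fold lower than on the WT LT-HSC array.

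The chemokines made by activated T and NK cells split between genotypes. Xcl1, which attracts cross-presenting dendritic cells, had 91.7 on the cKO LT-HSC array and 171 on the WT LT-HSC array, and was dim on the MPP arrays of cKO (15.2) and WT (12). Ccl5, known as RANTES, had 1239 on the cKO LT-HSC array and 822 on the WT LT-HSC array, against 204 on the cKO MPP array and 193 on the WT MPP array. In LT-HSC the cKO minus WT difference was -0.90 ± 0.21 (log2) for Xcl1 and 0.59 ± 0.20 for Ccl5.

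Of the NK receptors, Klrd1, Klrk1 and Klrb1c lie close together on chromosome 6, in the gene complex of lectin-like NK receptors. Klrd1, which pairs with NKG2 chains, had 261 on the cKO LT-HSC array and 329 on the WT LT-HSC array, and was dim on the MPP arrays of cKO (3.20) and WT (3.82). It was at least 19.3-fold higher in LT-HSC, averaged over genotypes, while the genotypes differed by -0.33 ± 0.20 (log2) in LT-HSC. Klrb1c, the classical NK cell antigen of this mouse strain, had 22.3 on the cKO LT-HSC array and 83.2 on the WT LT-HSC array, and was dim on both MPP arrays (3.51 in cKO and 4.14 in WT). The cKO minus WT difference was -1.90 ± 0.28, and a second probe was not well above background on any array.

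Klrk1, the activating receptor NKG2D, had signals of 3.25 to 8.95 and was below the threshold of the flag on all 4 arrays, so it has no difference. Ncr1, the natural cytotoxicity receptor of NK cells, was close to background throughout. It had 37.5 on the cKO LT-HSC array and 21.4 on the WT LT-HSC array, with 16.3, not well above background, on the cKO MPP array, and 24.2 on the WT MPP array. In WT its LT-HSC minus MPP difference was -0.18 ± 0.36 (log2), within the scanner error, and in cKO at least 1.20.

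The cytotoxic granule genes fell into 2 pairs. Gzma and Gzmb, the granzymes A and B that kill target cells after entry, were higher in LT-HSC and lower in cKO LT-HSC. Gzmb had 295 on the cKO LT-HSC array and 607 on the WT LT-HSC array, against 42.7 on the cKO MPP array and 48.0 on the WT MPP array. Gzma had 138 on the cKO LT-HSC array and 361 on the WT LT-HSC array, against 20.5 on the cKO MPP array and 10.0, not well above background, on the WT MPP array. Within LT-HSC, cKO minus WT was -1.04 ± 0.20 (log2) for Gzmb and -1.39 ± 0.21 for Gzma.

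Prf1, the pore-forming perforin, and Nkg7, a granule membrane protein, did not share that pattern. Prf1 had 842 on the cKO LT-HSC array and 929 on the WT LT-HSC array, against 759 on the cKO MPP array and 582 on the WT MPP array. Nkg7 had 4657 on the cKO LT-HSC array and 3716 on the WT LT-HSC array, against 5535 on the cKO MPP array and 5736 on the WT MPP array. Its LT-HSC minus MPP difference was -0.25 ± 0.20 (log2) in cKO and -0.63 ± 0.20 in WT, with -0.39 and -0.68 at a second probe, so neither gene separated the populations by 2-fold.

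**Figure D3:**
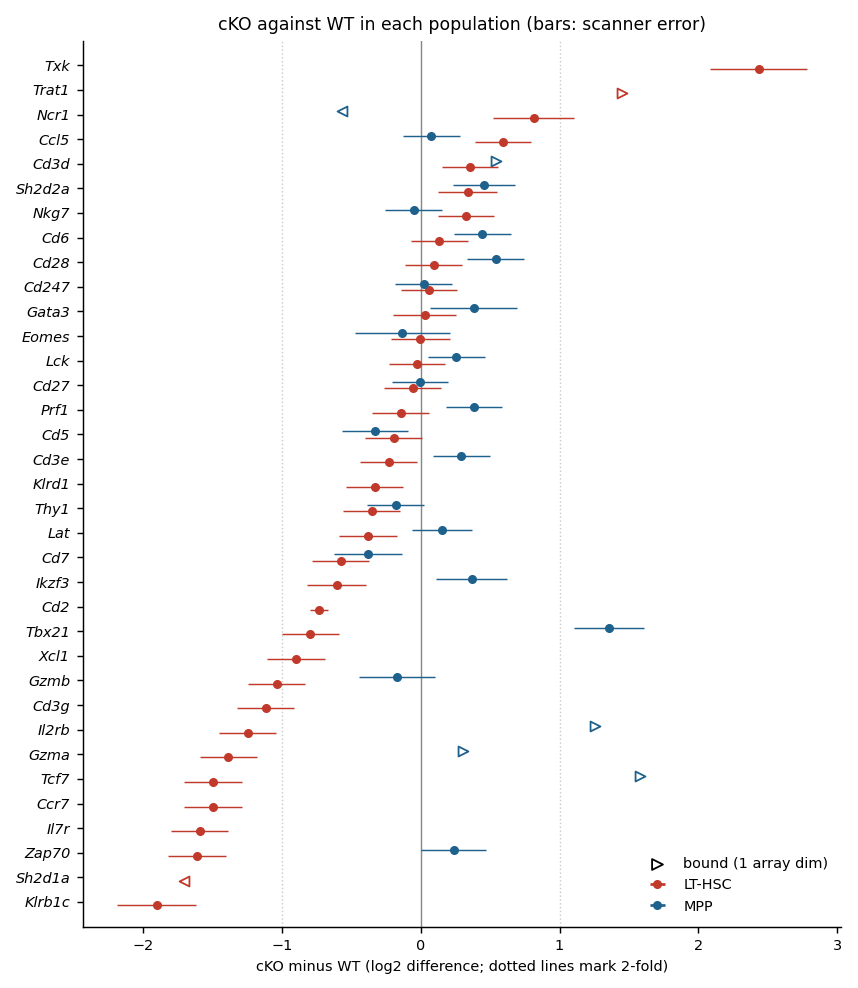
cKO minus WT difference (log2) of each member in LT-HSC (red) and in MPP (blue), sorted by the LT-HSC value, with the scanner software's error as bars, open triangles for bounds and dotted lines at 2-fold. In LT-HSC 10 genes lie beyond 2-fold to the left and 2 to the right; in MPP 3 lie beyond 2-fold to the right (Il2rb, Tcf7 and Tbx21) and 0 to the left.

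Among the transcription factors, Tbx21 and Tcf7 differed most. Tbx21 (T-bet), which directs type 1 helper T cell and NK cell fates, had 546 on the cKO LT-HSC array and 947 on the WT LT-HSC array, against 115 on the cKO MPP array and 45.0 on the WT MPP array. In LT-HSC it stood -0.79 ± 0.20 (log2, cKO minus WT) apart and in MPP 1.36 ± 0.25. Tcf7 (TCF-1), which commits progenitors to the T lineage, had 83.4 on the cKO LT-HSC array and 235 on the WT LT-HSC array, against 49.5 on the cKO MPP array and 12.6, not well above background, on the WT MPP array. Here cKO minus WT was -1.49 ± 0.21 in LT-HSC and at least 1.58 in MPP. A second Tcf7 probe gave -1.21 in LT-HSC but was dim on both MPP arrays (7.39 in cKO and 11.7 in WT), so the MPP difference rests on 1 probe.

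Eomes, the T-box relative of Tbx21 in NK and memory T cells, separated the populations, and its 2 probes gave different values between genotypes. At the brighter probe it had 93.1 and 93.2 on the LT-HSC arrays of cKO and WT, against 24.2 and 26.5 on the MPP arrays, and was 3.85-fold higher in LT-HSC in cKO and 3.51-fold higher in WT. A dimmer probe had 17.0 on the cKO LT-HSC array and 29.7 on the WT LT-HSC array, a difference of -0.80 ± 0.35 (log2), and was dim on both MPP arrays. Gata3, which directs T cell development and is also known in stem cells, had 58.4 and 57.3 on the LT-HSC arrays of cKO and WT against 39.0 and 30.0 on the MPP arrays. Ikzf3 (Aiolos), an Ikaros-family factor of lymphocytes, had 78.7 on the cKO LT-HSC array and 119.6 on the WT LT-HSC array, against 61.3 on the cKO MPP array and 47.5 on the WT MPP array. Neither Gata3 nor Ikzf3 differed by 2-fold between genotypes.

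Seen over both populations, no member kept a 2-fold genotype difference: 0 of 35 were higher and 0 lower by 2-fold in cKO in both (0.473% and 0.413% of all genes). In cKO 7 of 33 were above WT in both populations by any amount (26.9% of all genes) and 11 were below (23.1%). The additive limma fit of genotype called 0 of 33 members, with a smallest adjusted p of 0.974. At an unadjusted p under 0.05 stood 2 members, Cd3g and Cd2, both lower in cKO and both dim in MPP, against 3.62% of all genes (2.04% higher and 1.58% lower). Both cKO arrays lay above both WT arrays for Cd247 alone (14.1% of all genes), with differences of 0.06 in LT-HSC and 0.02 in MPP, and below both for 0 members (11.1%). Of the 10 members with a second probe, 9 had a population difference at both probes, with the same sign at both in 9 of 9 in cKO and in WT. For cKO minus WT in LT-HSC the sign was shared by 7 of 9, the exceptions being Cd247 and Sh2d2a, and in MPP by 1 of 5.

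A wider list of 56 further T and NK cell genes on the array ran the same way between populations with more exceptions. In cKO 23 of 47 were higher in LT-HSC by 2-fold and 1 lower (7.92% and 6.69% of all genes). In WT 30 of 52 were higher and 4 lower (10.2% and 18.1%). Of these differences 12 in cKO and 20 in WT are bounds, which could run in 1 direction only. Over genes measured on both arrays the median was 0.58 (log2, n = 35) in cKO and 1.17 (n = 31) in WT, against -0.09 and -0.20 over all genes. Among the genes with the greatest differences in cKO were Klrg1 (at least 4.42, log2), an inhibitory receptor of effector lymphocytes, Themis (at least 4.11), a T cell selection protein, and Icos (at least 3.73), a costimulatory receptor. The greatest in WT were Cxcr3 (at least 4.45), a chemokine receptor, Ifng (at least 4.34), the cytokine interferon gamma, Slamf6 (at least 4.18), a SLAM receptor, and S1pr1 (3.82), which leads lymphocytes out of tissues. Themis was not well above background on either WT array and so has no difference there.

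Between genotypes 7 of 53 genes of the wider list were higher by 2-fold in cKO LT-HSC (13.2%, against 10.7% of all genes) and 13 were lower (24.5%, against 8.24%). At the ends stood Themis (at least 4.43, log2) and Lcp2 (2.58), a T cell adaptor, on the higher side, and Lef1 (-3.30), the partner of Tcf7, and Cd96 (-2.81), an NK and T cell receptor, on the lower. In MPP 2 of 37 were higher and 2 lower (2.4% and 2.63% of all genes), with Slamf6 at least 1.82 and S1pr1 at 1.40, against Lef1, lower by at least 2.01, and Il12rb1, an interleukin-12 receptor chain, at -1.02.

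B lineage and plasmacytoid dendritic cell genes moved with the T and NK cell genes between populations and between genotypes in LT-HSC. Neutrophil and erythroid genes did so in part, and macrophage genes ran the other way between populations. Over all genes, 7.92% were higher and 6.69% lower in LT-HSC in cKO, 10.2% and 18.1% in WT. On the cKO LT-HSC array 10.7% were higher and 8.24% lower than in WT. Of 15 B lineage genes, 11 were higher in LT-HSC by 2-fold in cKO and 13 in WT, with 0 lower in either. In each genotype 5 of the 15 differences are bounds from dim MPP signals, which could run in 1 direction only. On the cKO LT-HSC array 9 B lineage genes were lower and 0 higher than on the WT LT-HSC array. In MPP, unlike the members, 3 of 11 B lineage genes were lower by 2-fold in cKO than in WT and 1 was higher. Of 12 plasmacytoid dendritic cell genes 0 were lower there and 1 was higher (2.63% and 2.4% of all genes). Their scaled signal, summed over genes well above background on the array, was 12623 on the cKO LT-HSC array and 23688 on the WT LT-HSC array, against 4195 on the cKO MPP array and 3602 on the WT MPP array. Cd22, an inhibitory receptor of B cells, made up 3475 of the cKO MPP sum and 2708 of the WT MPP sum. Without it the sums were 8649 on the cKO LT-HSC array and 19796 on the WT LT-HSC array, against 719.9 on the cKO MPP array and 893.6 on the WT MPP array, so that the order of the MPP arrays turned. Ms4a1, Ebf1, Igll1 and Fcrla were not well above background on either MPP array. Pax5, the factor of B cell identity, differed by -1.93 (log2) between cKO and WT LT-HSC. Of 12 plasmacytoid dendritic cell genes, 8 were higher in LT-HSC in cKO and 11 in WT, and 6 were lower and 0 higher on the cKO LT-HSC array, led by Klk1 at -2.18. Their sums were 16766 and 28090 on the LT-HSC arrays of cKO and WT, and 8586 and 8410 on the MPP arrays. For the 36 members the sums were 20807 on the cKO LT-HSC array and 26552 on the WT LT-HSC array, against 11280.5 on the cKO MPP array and 10829 on the WT MPP array, of which Nkg7 made up 5535 and 5736 on the MPP arrays of cKO and WT. Outside the lymphoid lists, 6 of 10 neutrophil genes were higher by 2-fold in LT-HSC in cKO and 1 lower, and in WT 7 were higher and 2 lower. On the cKO LT-HSC array 1 neutrophil gene was higher and 0 lower than on the WT LT-HSC array. Of 8 erythroid genes, 2 were higher in LT-HSC and 1 lower in cKO, 4 were higher and 0 lower in WT, and 3 were lower and 0 higher on the cKO LT-HSC array. Of 11 macrophage genes, 0 were higher and 9 lower by 2-fold in LT-HSC in cKO, and 0 were higher and 5 lower in WT. On the cKO LT-HSC array 1 of 10 macrophage genes was higher and 2 were lower than on the WT LT-HSC array. The part of these cell types in the T and NK cell result was not tested.

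**Figure D4:**
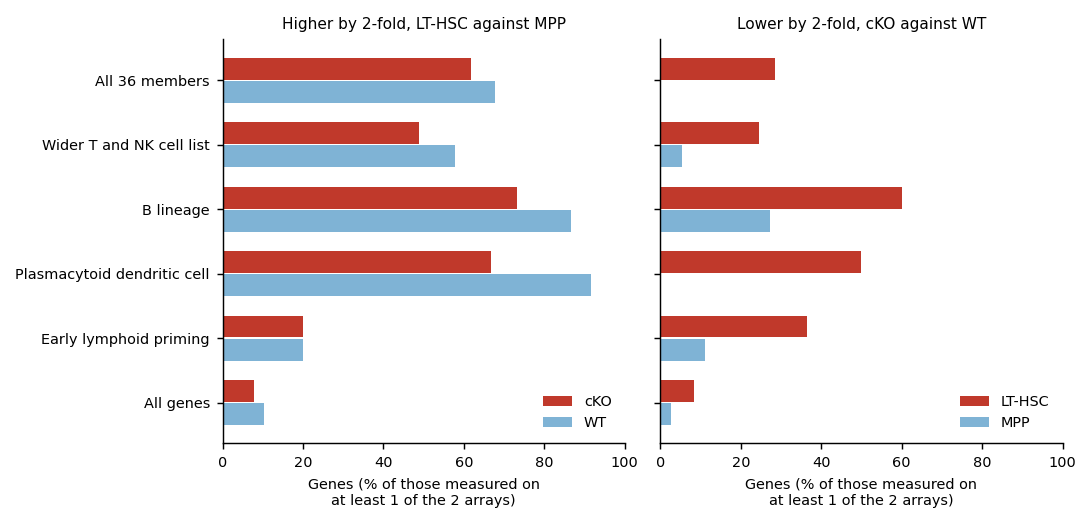
Percent of genes, of those measured on at least 1 of the 2 arrays compared, that were higher by 2-fold in LT-HSC than in MPP (left panel, cKO in red and WT in blue) and lower by 2-fold in cKO than in WT (right panel, LT-HSC in red and MPP in blue), for the 36 members, 4 other lists and all genes. B lineage and plasmacytoid dendritic cell genes lie above the 36 members on the left and, for LT-HSC, on the right, and all genes lie at 7.92% and 10.2% on the left and at 8.24% and 2.63% on the right.

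Genes of early lymphoid priming, which progenitors switch on before a lineage is fixed, did not run with the members between populations. In each genotype 2 of 10 were higher in LT-HSC by 2-fold and 2 were lower, and on the cKO LT-HSC array 4 of 11 were lower and 1 higher than on the WT LT-HSC array. Beside the 3 members higher in cKO MPP stood 11 macrophage genes, of which 9 were higher by 2-fold and 0 lower on the cKO MPP array (2.4% and 2.63% of all genes), with a summed signal of 23150.3 there and 11197 on the WT MPP array. Whether macrophage RNA bears on Il2rb, Tcf7 or Tbx21 was not tested.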

How the data were processed

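The deposited scanner tables hold the authors' linear spot intensities of 1 colour (Cy3), with 1 table per array. Per the file headers they came from Agilent Feature Extraction 10.7.3.1 (the submitters' processing notes give version 9.5.3), array design 028005 with probe positions on mouse build mm9, and the processed signal was background-subtracted within each array, without scaling between arrays. The deposited spot flags, scores of 0 or 1 per the file headers, mark spots well above background, saturated spots (0 here) and outliers, of which 137 to 151 per array were left out. The authors' series table held ratios, linear values relative to each probe's own level. Set against the scanner values its log2 differences between arrays had r = 1 across probes, and 100% of probes lay within 0.05 of a constant offset per pair of arrays, so the direction was the same. Its column medians were 97.5 for cKO LT-HSC, 91.9 for WT LT-HSC, 102 for cKO MPP and 107 for WT MPP, and the rule of its centring and scaling stayed unknown.

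The log2 processed signal was taken minus each array's 75th percentile, and spots of a probe were averaged. Where a gene had several probes that were detected anywhere, the one brightest on average was used, and genes carry the name on the array design. Differences were taken between arrays within a probe, except where a gene's probes were averaged as an alternative. The summed signals of the lists, however, add levels of different genes' probes. For a gene dim on 1 of 2 arrays, the bright value was set against the dim array's lowest flagged signal or the dim value itself, whichever was higher. Differences between 2 arrays were described by size, with 2-fold as the limit. The additive limma 3.58.1 fit (R 4.3.3, lmFit and eBayes) covered 25855 genes detected on 2 or more arrays and was tested on simulated data. In it a response that differs between the arrays of the other factor counts as error. Precision is limited by the number of arrays. The median scanner error of a difference was 0.21 (log2). All 36 members are named; of the other lists, the 4 greatest differences per comparison are the named-gene rule, applied here to those that bear on the members. The members and lists were chosen with earlier results of these data known. Alternatives covered scaling, background correction, the filter on dim probes, the probe that stands for a gene, the fold limit, bounds and the authors' table. A gene of the wider T and NK cell list that the naming rule selects is not reported here.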

Additional observations from a re-analysis of the deposited data

Results flagged for a closer look

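Il2rb, Tcf7 and Tbx21 stood apart because the cKO minus WT difference had opposite signs in the LT-HSC and MPP populations, at 1.5-fold or more in both; the difference between the populations was not tested. For Il2rb it was -1.25 (log2) in LT-HSC and at least 1.26 in MPP. For Tcf7 it was -1.49 in LT-HSC and at least 1.58 in MPP. For Tbx21, measured on all 4 arrays, it was -0.79 in LT-HSC and 1.36 in MPP.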

How the results depend on the processing

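Over 116 alternatives, 88 left a count within 1.5 times or a median near its value and 28 did not. The sign of the median difference was kept in all 32 alternatives of the medians. The 88 include those with the authors' table, which had little room to move a result. Its log2 differences between arrays match those of the scanner values up to an offset. They also include the limma genotype effect, which called 0 members under every setting. Shares of all genes for the counts without bounds, with detection on all 4 arrays and at 1.5-fold are given with the results above. Leaving out bounds gave 1 member higher in cKO LT-HSC, 1 higher in cKO MPP, and 12 (cKO) and 11 (WT) higher in LT-HSC than in MPP. With members entered at their bound the LT-HSC minus MPP medians were 1.80 in cKO and 2.27 in WT. With genes detected on all 4 arrays, 0 members were higher and 2 lower in cKO LT-HSC (median -0.10), 1 was higher in cKO MPP, and 9 (cKO, median 0.64) and 11 (WT) were higher in LT-HSC; fewer genes enter by construction. With normexp background correction, 0 were higher and 6 lower in cKO LT-HSC (0% of calls higher, against 16.7%), where 1028 and 1048 of 27645 genes were. In cKO MPP 0 were higher (88 of 25339 genes), and the population medians were 0.63 in cKO and 0.70 in WT. The cause was not tested. With no filter on dim probes 1 member was lower in cKO MPP (80.0% of calls higher, against 100%), where 2045 of 34839 genes were lower. The population medians were then 1.90 in cKO and 2.18 in WT. At 1.5-fold 4 were higher in cKO LT-HSC, and 2 were lower in WT LT-HSC than in WT MPP. Quantile normalization left 0 lower there, with Cd27 just under 2-fold. The mean of a gene's probes gave a cKO population median of 1.63. The limma population effect called 4 members with the percentile over probes detected on all arrays (102 of 25855 genes), against 0. It called 4 with normexp (141 of 25855 genes) and 5 with the mean of probes (154 of 25940). With genes detected on all 4 arrays it called 0 of 20 members and 68 of 21534 genes. Scaling moved the median of all genes for LT-HSC minus MPP in WT to -0.05 or -0.06, against -0.20, and in cKO to 0.02 at most, against -0.09. No paired analysis was possible because each group has 1 array and the labels give no replicate numbers. Signals near background limit Txk, Trat1, Sh2d1a, Klrk1, Klrb1c and Ncr1.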

Other observations

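The genes whose centred log2 levels over the 4 arrays lay closest to a member, among 25855 genes and by the summed absolute distance, were these, as a description of 4 points each. Nearest to Cd3e were Zfp36l1 (0.26) and Slc2a8 (0.33), besides a locus with no gene name. Nearest to Lck were 1700113H08Rik (0.04) and Gdpd5 (0.06), besides an unnamed transcript (0.05). Nearest to Gzma were Scd1 (0.39), Cox6a2 (0.73) and Gimap3 (0.74). The 3 nearest to Klrd1 (0.55 to 0.77) carry only transcript identifiers in the files.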
